A study of Mus musculus with 4 samples.

Results

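Elastic fibres give stretch to skin, lung and vessel walls, and fibroblasts lay down most of their parts. Elastin (Eln) is secreted as soluble tropoelastin, gathered on a scaffold of fibrillin microfibrils and joined into an insoluble polymer by lysyl oxidase (Lox). Fibulins bind elastin, fibrillin and lysyl oxidase and take part in this assembly, and microfibril-associated proteins decorate the scaffold. The transcripts of 10 such genes were followed here in mouse embryonic fibroblasts (MEFs): the fibulins Fbln1, Fbln2, Fbln5, Efemp1 (fibulin-3) and Efemp2 (fibulin-4), together with Eln, Lox, Fbn1, Mfap4 and Mfap5. They were found by symbol among the 21512 symbols on the arrays and are read by 13 of 41174 probes, 3 genes by 2 probes and 7 genes by 1. The list was selected on the density effects and genotype differences that these same arrays had already shown, so those values are given here as a description, without a test.

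All cells were C57BL/6J MEFs grown in DMEM with 10% serum, and the genotype field of the labels gives either Lats2-/- (KO) or Lats2+/+ (WT). LATS2 is a kinase of the Hippo pathway, which responds to cell crowding, and the series asked how the transcriptome of MEFs differs between growing and contact-inhibited cultures. Low density cultures were sampled after 48 h, while subconfluent, and high density cultures after 3 to 5 days, so density and time in culture cannot be told apart. Each of the 4 Agilent 2-colour arrays compared high with low density within a genotype, 2 arrays per genotype with the dyes exchanged. A dye swap was counted as 1 replicate, so each genotype and density has 1 replicate. Whether the 2 arrays of a genotype used the same RNA extracts is not given in the labels, so whether their spread is technical alone is unknown. The labels do not give how many embryos or lines stand behind a genotype. The supplement of the study speaks of independent cell lines for its comparison of KO with WT MEFs, without tying any of them to these arrays.

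The share of features well above background was 62.6% in Cy3 and 67.7% in Cy5 on KO replicate 1, and 52.8% to 56.2% in the 6 channels of the other 3 arrays. The 2 WT arrays lay on 1 slide and the 2 KO arrays on 2 other slides scanned on different days, so slide and scan cannot be told apart from genotype. Of 4 Lats2 probes, 3 read higher in KO than in WT MEFs and 1 lower at both densities, with log2 differences from -0.63 to 1.39 at low density and from -1.26 to 1.49 at high density. The part of the gene removed in the mutant is not given in the sources used here, so whether any probe lies in it is unknown, and WT and KO below name the labelled genotype. The 8 fibroblast markers were well above background in all 8 channels. Endothelial Pecam1, Cdh5 and Tie1, macrophage Ptprc, Emr1 and Itgam, epithelial Cdh1, Epcam and Krt8, cartilage Col9a1 and Matn1, and neural Sox2 and Gfap were well above background in none.

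Some markers nevertheless moved with the groups. The summed level of the 6 smooth muscle markers, 4 or 5 of them measured in each group, ran on the log2 scale from 18.3 to 18.7 in WT low density, 15.96 to 16.52 in WT high density, 17.80 to 17.88 in KO low density and 17.45 to 17.47 in KO high density MEFs. Contractile Acta2 was lower at high density by a log2 value of -1.85 in WT and -0.47 in KO MEFs. The density effect of Acta2 was thus higher in KO than in WT MEFs, by 1.37, as were those of 4 of the 8 fibroblast markers (Fn1 2.63, Col1a2 1.69, Col1a1 1.66 and Thy1 1.5). The other 4 fibroblast markers went the other way (S100a4 -1.67, Pdgfra -1.36, Col3a1 -0.71 and Vim -0.03). The summed macrophage level was 8.90 to 9.13 in WT MEFs against 10.58 to 12.42 in KO MEFs, with Lyz2 higher in KO by 3.90 at low and 4.75 at high density. Cd68, the macrophage marker well above background in all 8 channels, differed by -0.10 at low and -0.38 at high density. The summed neural level ran from 13.40 to 13.43 in WT low, 11.47 to 11.51 in WT high, 10.38 to 10.45 in KO low and 9.95 to 10.14 in KO high density MEFs, with Nes lower in KO by a log2 value of -6.20 at low and -3.77 at high density and Tubb3 at -0.01 and 0.11. The endothelial sums stayed between 8.40 and 8.76 and the epithelial sums between 8.69 and 8.99, and the cartilage sums were 12.99 to 13.31 at low and 14.13 to 14.54 at high density. Within the cartilage list, Col2a1 had density effects of -0.48 in WT and 2.86 in KO MEFs. Col11a1 had 2.55 and 1.25, and Sox9 had 1.47 and 0.87. KO minus WT, Col2a1 stood at -3.23 at low and 0.11 at high density, Col11a1 at 1.71 and 0.41. The part of these cells in the results below was not tested.

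Levels are given as normalized log2 intensities, in which a step of 1 is a 2-fold step, and they can be compared between samples for a probe but not between probes. As these are cultures measured in bulk, fewer cells that make a transcript and less of it per cell cannot be told apart. A density effect is the log2 ratio of high over low density, and a genotype difference is KO minus WT at the same density and in the same dye. A value is called when its mean reaches 2-fold and its 2 single values, which are the 2 arrays or the 2 dyes, share a sign. In the plot of levels by channel, the 2 dyes of a genotype and density lay close together for most genes, and Mfap4, Fbln1 and Efemp1 spanned the widest ranges of mean level across the 4 conditions.

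**Figure D1:**
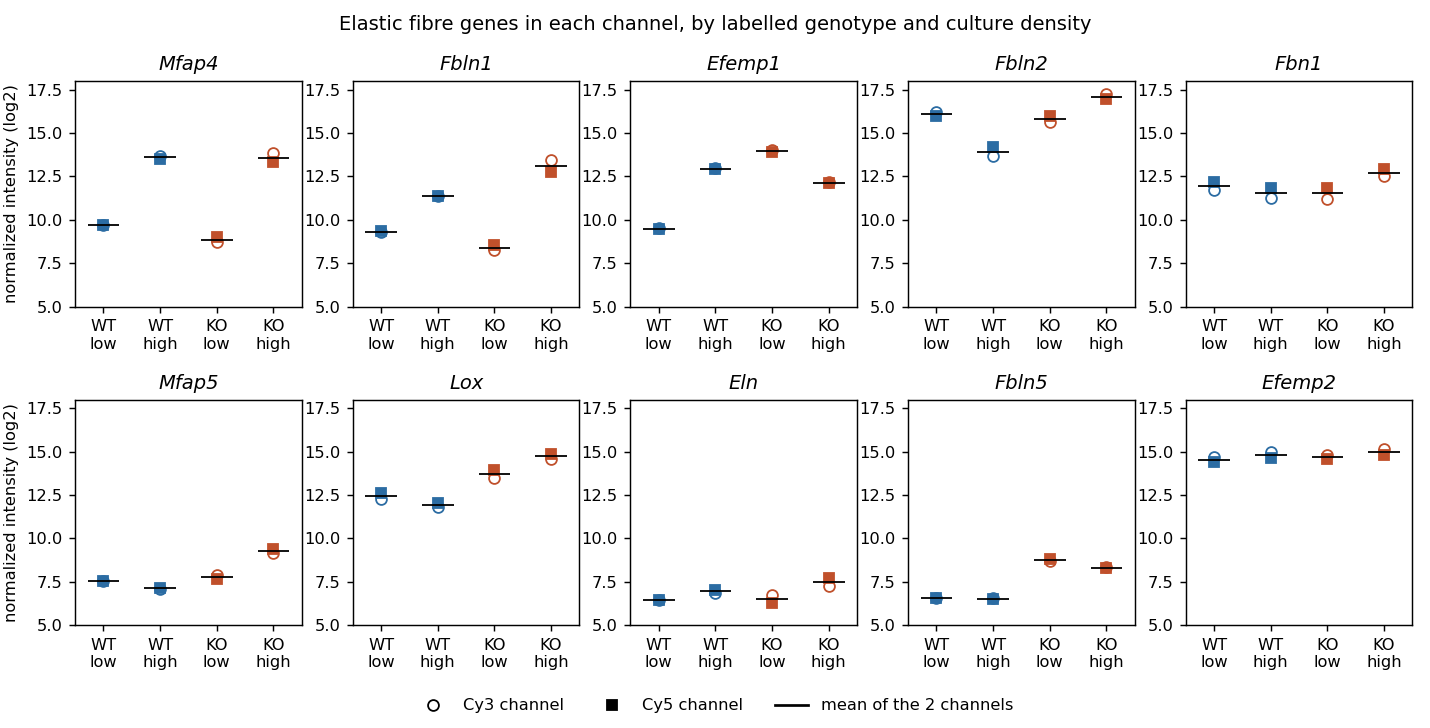
Normalized log2 intensity of the brightest probe of each of the 10 genes in each of the 8 channels, for WT (blue) and KO (orange) MEFs at low and high density. Open circles are Cy3, filled squares are Cy5 and the black line is the mean of both. Efemp1 lay at 9.48 in WT low density MEFs and above 12 in the other 3 conditions, whereas Fbln2 was lowest in WT high density MEFs, at 13.92.

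Efemp1 encodes fibulin-3, a secreted glycoprotein of basement membranes and elastic tissues, and it went in opposite directions with density in the 2 genotypes. Its probe lies on chromosome 11, bases 28826538 to 28826597, plus strand, in the mm8 annotation of the array. In WT MEFs its log2 intensity was 9.50 (Cy3) and 9.45 (Cy5) at low density, and 12.93 (Cy5) and 12.96 (Cy3) at high density. In KO MEFs it was 14.00 (Cy3) and 13.91 (Cy5) at low density, and 12.10 (Cy5) and 12.16 (Cy3) at high density. The 4 conditions did not overlap, and their order from the top was KO low, WT high, KO high and WT low density. The density effect was therefore 11.1-fold higher in WT (log2 3.43 and 3.5 on the 2 arrays) and 3.54-fold lower in KO MEFs (-1.90 and -1.75). The difference of these effects was -5.29, which ranked 6 by size among 21546 probes. At low density Efemp1 was 22.3-fold higher in KO than in WT MEFs (4.5 in Cy3, 4.45 in Cy5), and at high density it was 1.76-fold lower (-0.80 and -0.83), which was not called.

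Fbln2, whose product fibulin-2 bridges fibrillin, fibronectin and basement membrane proteins, took the opposite course to Efemp1 with density. Its single probe maps to chromosome 6, bases 91237628 to 91237687, plus strand (mm8). In WT MEFs it read 16.24 (Cy3) and 15.99 (Cy5) at low density, and 14.19 (Cy5) and 13.66 (Cy3) at high density. In KO MEFs it read 15.64 (Cy3) and 16.00 (Cy5) at low density, and 16.98 (Cy5) and 17.23 (Cy3) at high density. The genotypes overlapped at low density (log2 difference -0.29) and parted at high density, where Fbln2 was 9.09-fold higher in KO MEFs (3.58 in Cy3, 2.79 in Cy5). The density effect was 4.57-fold lower in WT (-2.05 and -2.33) and 2.44-fold higher in KO MEFs (1.34 and 1.23), a difference of 3.48 that ranked 23 by size. The KO density effect of Fbln2 depended on the normalization within the array, since it was 0.50 and no longer called when arrays were centred on their median in place of loess.

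Fbln1 encodes fibulin-1, a fibronectin- and fibrinogen-binding component of elastic fibres and vessel walls, and it was higher at high density in both genotypes. Its probes lie on chromosome 15, bases 85113334 to 85113393 and bases 85113190 to 85113250, plus strand (mm8). The brighter probe read 9.29 (Cy3) and 9.35 (Cy5) at low and 11.37 in both dyes at high density in WT MEFs. In KO MEFs it read 8.26 (Cy3) and 8.53 (Cy5) at low density, and 12.73 (Cy5) and 13.47 (Cy3) at high density. KO MEFs thus held both the lowest and the highest condition of Fbln1. The density effect was 4.15-fold in WT (2.08 and 2.03) and 26.1-fold in KO MEFs (4.47 and 4.94), where it ranked 8 by size among 23596 probes. The genotype difference was -0.92 at low density, not called, and 1.73 at high density (2.10 in Cy3, 1.36 in Cy5). The dimmer probe gave the same directions, with density effects of 1.68 in WT and 3.91 in KO MEFs and genotype differences of -0.30 and 1.93.

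Fbln5 encodes fibulin-5, which tethers elastin and cross-linking enzymes to microfibrils, and it differed by genotype more than by density. Its brighter probe lies on chromosome 12, bases 102147718 to 102147777, minus strand, and the other at bases 102165542 to 102165601 (mm8). The brighter probe read 6.54 (Cy3) and 6.57 (Cy5) at low and 6.49 (Cy5) and 6.53 (Cy3) at high density in WT MEFs, close to background, and was not well above it in Cy3 at high density. In KO MEFs it read 8.68 (Cy3) and 8.82 (Cy5) at low and 8.29 (Cy5) and 8.32 (Cy3) at high density. All 4 KO values lay above all 4 WT values, by 4.58-fold at low and 3.47-fold at high density, and the density effects of -0.05 in WT and -0.44 in KO MEFs were not called. Because WT signal was dim, the size of the genotype difference depended on background correction. It was 3.16 and 2.76 without the offset and 3.79 and 3.37 in the software's processed signals, against 2.19 and 1.80 here. The other Fbln5 probe was not well above background in any WT channel and gave at least 1.2-fold at low and at least 1.06-fold at high density, the KO mean set against the higher of the dim signal and the lowest measured signal on each array. The mean over both probes was 1.36 at low and 1.05 at high density.

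Efemp2 encodes fibulin-4, which is needed for lysyl oxidase to act on elastin, and none of its density effects or genotype differences was called. It was read by a probe on chromosome 19, bases 5481762 to 5481821, plus strand (mm8). It read 14.66 (Cy3) and 14.40 (Cy5) at low and 14.65 (Cy5) and 14.99 (Cy3) at high density in WT MEFs. It read 14.82 (Cy3) and 14.56 (Cy5) at low and 14.83 (Cy5) and 15.16 (Cy3) at high density in KO MEFs. Neighbouring conditions overlapped throughout, with a density effect of 0.30 in both genotypes and a genotype difference of 0.17 at both densities. The array with high density in Cy5 and its swap differed by -0.60 in WT and -0.59 in KO MEFs, a gap that opposite dye orientations leave between 2 arrays. With median centring its density effect was 0.02 in WT and -0.32 in KO MEFs, so its direction with density depended on the normalization.

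Eln encodes tropoelastin, the elastic polymer itself. The probe is on chromosome 5, bases 134987886 to 134987945, minus strand (mm8). It read 6.43 (Cy3, not well above background) and 6.45 (Cy5) at low and 7.0 (Cy5) and 6.87 (Cy3) at high density in WT MEFs. It read 6.73 (Cy3) and 6.29 (Cy5) at low and 7.70 (Cy5) and 7.24 (Cy3) at high density in KO MEFs. High density was above low density in both genotypes, with effects of 0.50 in WT (0.58 and 0.42) and 0.96 in KO MEFs (0.97 and 0.95), neither of them called. The offset added during background correction shrinks ratios of a probe this dim. Without it the effects were 1.17 and 1.64, and in the software's processed signals 1.74 and 2.05, all of which passed 2-fold. The genotype difference was 0.07 at low density, with opposite signs in the 2 dyes, and 0.54 at high density.

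Lox, the copper-dependent enzyme that oxidizes lysines of elastin and collagen so that they cross-link, was higher in KO MEFs at both densities. Its probe lies on chromosome 18, bases 52641882 to 52641941, minus strand (mm8). It read 12.26 (Cy3) and 12.59 (Cy5) at low and 12.04 (Cy5) and 11.78 (Cy3) at high density in WT MEFs. It read 13.50 (Cy3) and 13.94 (Cy5) at low and 14.84 (Cy5) and 14.59 (Cy3) at high density in KO MEFs. The 4 conditions did not overlap, and Lox was 2.46-fold higher in KO MEFs at low density and 6.98-fold at high density. The density effect was -0.52 in WT (-0.22 and -0.81) and 0.99 in KO MEFs (1.33 and 0.65). Neither passed 2-fold, whereas the difference of 1.51 between them (1.55 and 1.46) did. The gap between the 2 arrays of a genotype, 0.59 in WT and 0.68 in KO MEFs, had the same sign in both and cancels in that difference.

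Fbn1 encodes fibrillin-1, the main subunit of microfibrils. Its probes lie on chromosome 2, bases 124992432 to 124992491 and bases 124992959 to 124993018, minus strand (mm8). The brighter probe read 11.69 (Cy3) and 12.18 (Cy5) at low and 11.85 (Cy5) and 11.26 (Cy3) at high density in WT MEFs. It read 11.20 (Cy3) and 11.83 (Cy5) at low and 12.90 (Cy5) and 12.53 (Cy3) at high density in KO MEFs. KO high density stood above the other 3 conditions, which overlapped. Cy5 was above Cy3 in each condition, and the single arrays gave 0.16 and -0.91 in WT and 1.70 and 0.69 in KO MEFs, a gap of 1.07 and 1.01. The called density effect of 1.2 in KO MEFs therefore rested on KO replicate 1: without it the value was 0.69, and with median centring it was 0.81. The difference of the density effects, free of that gap, was 1.57 (1.54 and 1.60), and the genotype difference was -0.42 at low and 1.16 at high density. The dimmer probe gave -0.51 in WT, 0.97 in KO, 1.48 for the difference and 1.17 for the genotypes at high density.

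Mfap5 encodes MAGP-2, a small microfibril protein that binds fibrillin. The Mfap5 probe maps to chromosome 6, bases 122494539 to 122494598, plus strand (mm8). It read 7.56 (Cy3) and 7.51 (Cy5) at low and 7.15 (Cy5) and 7.08 (Cy3) at high density in WT MEFs. It read 7.86 (Cy3) and 7.68 (Cy5) at low and 9.41 (Cy5) and 9.18 (Cy3) at high density in KO MEFs. The conditions did not overlap, and KO high density was set apart from the rest by 1.53 or more. The density effect was -0.42 in WT, not called, and 2.88-fold higher in KO MEFs (1.55 and 1.5). The genotype difference was 0.23 at low density and 4.53-fold at high density (2.10 in Cy3, 2.26 in Cy5). This last value was 2.79 without the offset and 3.08 in the processed signals.

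Mfap4, a fibrinogen-related protein that binds microfibrils and tropoelastin, had the largest density effect of the 10 genes in WT MEFs, and in KO MEFs its 4.73 stood beside 4.70 for Fbln1, an order that KO replicate 2 turned (4.87 against 4.94). Its probe lies on chromosome 11, bases 61304789 to 61304848, plus strand (mm8). It read 9.70 (Cy3) and 9.69 (Cy5) at low and 13.53 (Cy5) and 13.70 (Cy3) at high density in WT MEFs. It read 8.72 (Cy3) and 8.99 (Cy5) at low and 13.32 (Cy5) and 13.86 (Cy3) at high density in KO MEFs. The 2 high density conditions overlapped and lay far above both low density conditions. The density effect was 15.2-fold in WT (3.83 and 4.01) and 26.6-fold in KO MEFs (4.60 and 4.87), which ranked 7 by size in KO MEFs. The genotype differences of -0.84 at low and -0.03 at high density were not called, nor was the difference of 0.81 between the density effects.

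**Figure D2:**
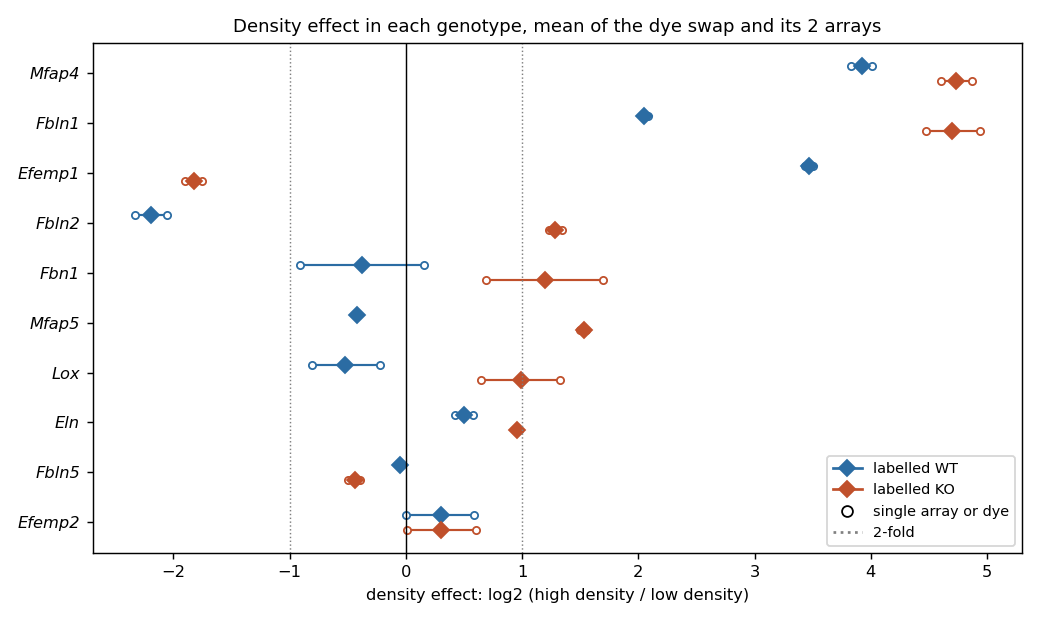
Density effect, log2 of high over low density, of the 10 genes in WT (blue) and KO (orange) MEFs. Diamonds are means of the dye swap, open circles its 2 arrays, and dotted lines mark 2-fold. Efemp1 (3.47 in WT, -1.82 in KO) and Fbln2 (-2.19 in WT, 1.28 in KO) crossed 0 between the genotypes, and the arrays of Fbn1, Lox and Efemp2 lay furthest apart.

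Set side by side, the density effects can be described by sign and by call. Fbln1 and Mfap4 were called higher in both genotypes. Efemp1 was called higher in WT and lower in KO MEFs, and Fbln2 was called the reverse way. Fbn1, Mfap5 and Lox were slightly lower on average in WT and higher in KO MEFs, of which Fbn1 and Mfap5 in KO MEFs were called. Efemp2, Eln and Fbln5 were called in neither genotype, as was Lox. In WT MEFs 4 of 10 genes were called, 3 higher (Mfap4, Efemp1, Fbln1) and 1 lower (Fbln2), with a median of 0.12. Over all 22591 probes measured there, 13.3% were called, 7.61% higher and 5.72% lower, with a median of 0.01. In KO MEFs 6 of 10 were called, 5 higher and 1 lower, with a median of 1.09, beside 9.62% of 23596 probes, 5.90% higher and 3.73% lower, with a median of 0.01. Of all called probes, 57.1% in WT and 61.3% in KO MEFs were higher, shares that became 43.9% and 40.3% with median centring, where the members stood at 3 higher and 1 lower in WT and 4 higher and 1 lower in KO MEFs. Since the list was selected on these contrasts, nothing is read from its counts.

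KO minus WT, the density effects differed by a called value for 6 genes, 5 higher (Fbln2 3.48, Fbln1 2.65, Mfap5 1.95, Fbn1 1.57 and Lox 1.51) and 1 lower (Efemp1 -5.29). The median of the 10 genes was 1.16. Of 21546 probes 8.0% were called, 3.78% higher and 4.22% lower, with a median of 0.02. The single values of this difference departed from their mean by an SD of 0.135 over all probes, which is the spread between dye orientations only. The plot of both density effects shows most probes along the diagonal and Efemp1 and Fbln2 on opposite sides of it.

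**Figure D3:**
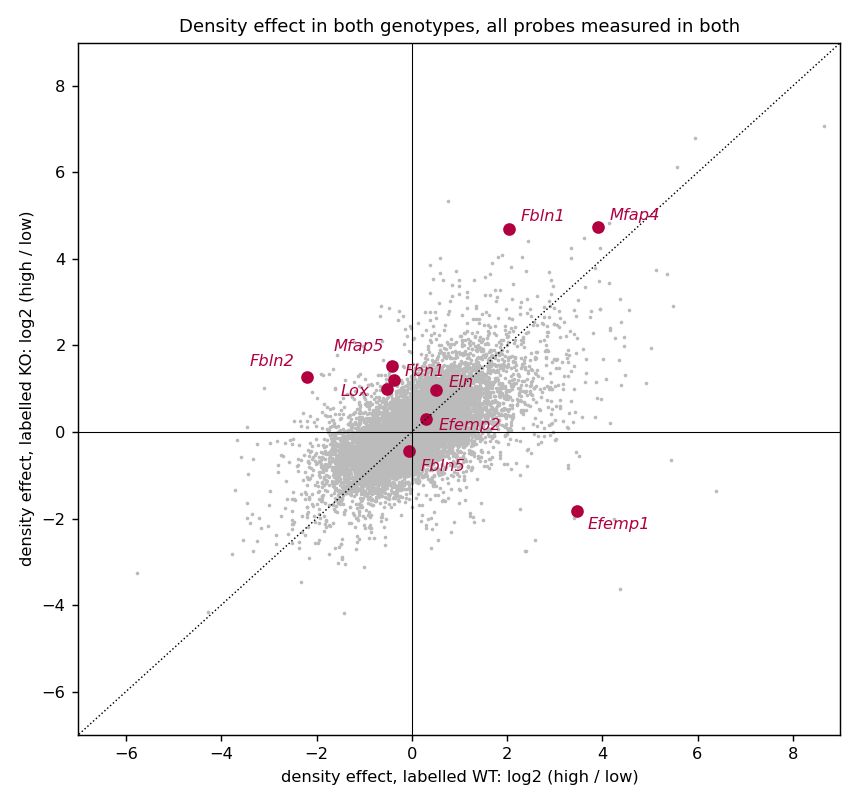
Density effect in KO MEFs against that in WT MEFs, both as log2 of high over low density, for the 21546 probes measured in both genotypes (grey) and the brightest probe of each of the 10 genes (red). The dotted line marks equal effects. Efemp1 lies far below it at 3.47 and -1.82, and Fbln2 above it at -2.19 and 1.28.

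The genotype difference at low density was called for 3 genes, all higher in KO MEFs (Efemp1 4.48, Fbln5 2.19 and Lox 1.30), with a median of 0.12 over the 10 genes. Of 23339 probes 13.9% were called, 6.86% higher and 7.07% lower, with a median of 0.04. At high density 6 genes were called, all higher in KO MEFs: Fbln2 3.18, Lox 2.80, Mfap5 2.18, Fbln5 1.80, Fbln1 1.73 and Fbn1 1.16. Their median with the other 4 was 1.44, beside 13.0% of 23617 probes called, 6.41% higher and 6.62% lower, with a median of 0.04. Lox and Fbln5 were on both lists, and Efemp1 was on the first with the opposite sign at high density. Without scaling between arrays the median of all probes rose to 0.27 at both densities and the share of higher calls from 49.2% to 72.3% at low and 70.2% at high density, and the same numbers of members, 3 and 6, were called higher.

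**Figure D4:**
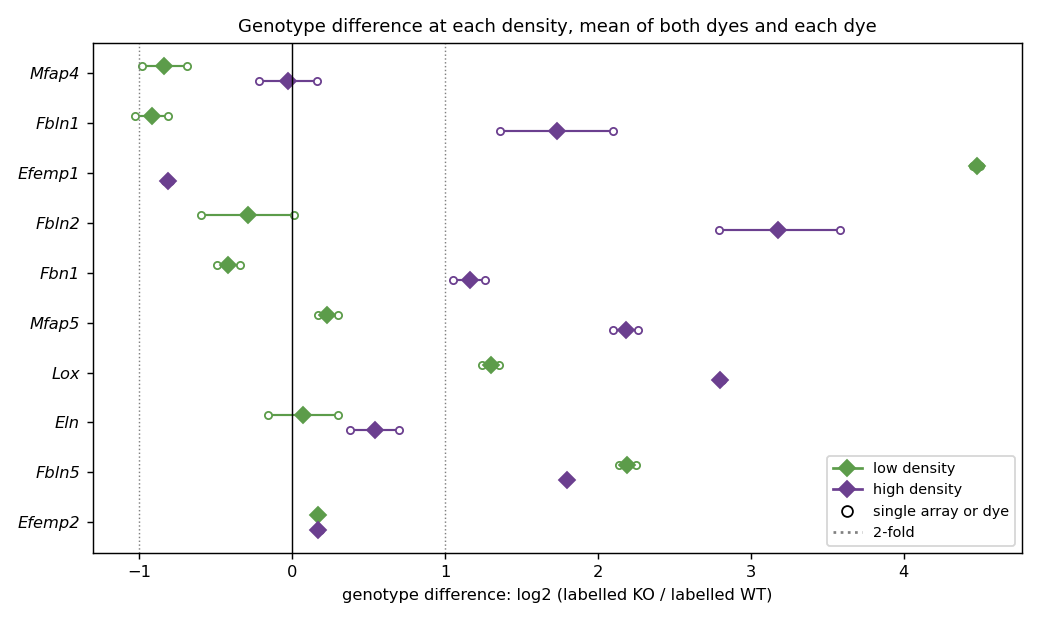
Genotype difference, log2 of KO over WT, of the 10 genes at low (green) and high (purple) density. Diamonds are means of both dyes, open circles the single dyes, and dotted lines mark 2-fold. Fbln2 stood at -0.29 at low and 3.18 at high density, and Efemp1 at 4.48 and -0.81.

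The start-site regions of the genes that parted most with density and genotype are printed so that their sequence can be read beside these values. The RefSeq-based promoter table (GRCm38.p6, a different build from the probe positions, so the coordinates cannot be set against each other) held 10 windows for 6 of the 10 genes, each reaching from 250 bases before to 50 bases after a start site. No window was listed for Eln, Lox, Mfap4 or Mfap5. They were searched on both strands for the TEAD core GGAATG (the factors through which YAP acts), the AP-1 site TGANTCA, the SP box GGGCGG and the TATA box TATAAA. Among all 32851 windows there, 14.7% held the TEAD letters, 7.81% the AP-1, 35.7% the SP and 13.6% the TATA letters. None of the 10 windows held the TEAD or the TATA letters, and the AP-1 letters were in 1, that of Efemp1. Capitals mark matches, all of them SP boxes except the AP-1 match of Efemp1, whose first base is 154 bases before the start. The SP matches begin 29 bases before the start in Efemp1, 16 before and 6 after in Fbln2, and 11 before and 11 after in the second window of Fbln1. No 2 of these matches overlap.
Efemp1, chr11:28852955-28853254, plus strand: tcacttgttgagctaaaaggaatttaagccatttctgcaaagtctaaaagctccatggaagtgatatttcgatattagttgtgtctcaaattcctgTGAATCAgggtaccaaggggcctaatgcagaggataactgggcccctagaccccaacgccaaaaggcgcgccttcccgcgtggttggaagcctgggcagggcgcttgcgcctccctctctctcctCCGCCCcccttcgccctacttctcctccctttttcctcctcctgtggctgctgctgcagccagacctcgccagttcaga
Fbln2, chr6:91212514-91212813, plus strand: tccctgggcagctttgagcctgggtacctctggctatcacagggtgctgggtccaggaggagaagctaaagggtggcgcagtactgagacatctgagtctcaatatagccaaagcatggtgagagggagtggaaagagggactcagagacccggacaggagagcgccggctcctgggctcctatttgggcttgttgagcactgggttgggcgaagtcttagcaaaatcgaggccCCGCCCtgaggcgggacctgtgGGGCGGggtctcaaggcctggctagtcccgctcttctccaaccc
Fbln1, chr15:85205758-85206057, plus strand: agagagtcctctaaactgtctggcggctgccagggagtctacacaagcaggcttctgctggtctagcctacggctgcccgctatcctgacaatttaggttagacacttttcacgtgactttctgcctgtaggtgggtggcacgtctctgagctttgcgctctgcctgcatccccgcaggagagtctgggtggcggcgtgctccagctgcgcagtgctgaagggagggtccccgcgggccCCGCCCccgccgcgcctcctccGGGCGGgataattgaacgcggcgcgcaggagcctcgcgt
A match is a run of letters and says nothing of whether a factor was bound there in these cells.

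Probes whose level across the 8 channels lay nearest to a member were sought among the 19501 well above background in every channel, as the Euclidean distance between log2 levels, each centred on its own mean. Nearest to Fbln2 were C030003D03Rik (distance 0.646), Tgfb3 (0.687), a transforming growth factor beta ligand, and Col8a1 (1.0), a short-chain collagen, against a distance of 3.30 between Fbln2 and a flat profile. Tgfb3 had density effects of -1.86 in WT and 1.31 in KO MEFs, and Col8a1 of -1.62 and 0.99. Nearest to Efemp1, itself 4.70 from flat, were Tgtp (1.30), an interferon-induced GTPase, and Adamts1 (1.5), a matrix protease. Adamts1 had effects of 4.25 in WT and -2.02 in KO MEFs, and Tgtp of 2.58 and -2.49. Nearest to Eln, only 1.25 from flat, were Adam11 (0.267), March7 (0.300) and AK035307 (0.307). Among the 10 genes themselves the closest pair was Efemp2 and Eln (0.992) and the next Eln and Fbn1 (1.27), while Fbln2 and Mfap4 were furthest apart (7.53). Since Eln lay near to flat, a small distance to it need not mean a shared course.

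A further 38 genes of elastic fibres and their processing were listed from general knowledge, of which 36 were on the arrays (Fbln7 and Elane under older names), each taken at its brightest probe. In WT MEFs 14 of the 30 measured were called, 8 higher and 6 lower, with a median of 0.56. In KO MEFs 12 of 28 were called, 10 higher and 2 lower, with a median of 0.67. The difference of the density effects was called for 6 of 28 (4 higher, 2 lower, median 0.16), the genotype difference at low density for 6 of 26 (3 and 3, median 0.04), and that at high density for 11 of 30 (6 higher, 5 lower, median 0.10). These counts stand beside the shares of all probes given above.

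Among the 14 relatives of fibulins, fibrillins and microfibril proteins on the arrays, Mfap2, encoding MAGP-1, was higher at high density in both genotypes, by 11.2-fold in WT and 8.25-fold in KO MEFs. Its dimmer probe gave log2 effects of 1.84 and 1.11. Fbln7, encoding fibulin-7, was 8.67-fold higher at high density in WT MEFs, and its effect of 0.74 in KO MEFs was not called. The difference was -2.38. Fbln7 was 6.15-fold lower in KO than in WT MEFs at high density, and its genotype difference of -0.24 at low density was not called. Ltbp2, whose product binds fibrillin microfibrils, took the course of Fbln2, 2.31-fold lower in WT and 4.24-fold higher in KO MEFs, a difference of 3.29. Fbn2, encoding the fibrillin of embryonic microfibrils, was 8.79-fold higher at high density in KO MEFs and was 46.0-fold higher in KO than in WT MEFs at high density. At low density Fbn2 was not well above background in WT MEFs and was at least 9.46-fold higher in KO MEFs. Hmcn1, encoding the large fibulin-related hemicentin-1, was at least 2.84-fold higher at high density in WT and at least 4.52-fold in KO MEFs, and its dimmer probe gave 0.73 and 1.38. Ltbp4, which guides elastin deposition, had a difference of density effects of 1.18, and Ltbp3, a TGF-beta binding protein, was lower in KO MEFs at low density (-1.07, and -0.77 at its other probe).

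The cross-linking list of 8 genes had 4 called in WT MEFs, 1 higher and 3 lower, and 2 in KO MEFs, 1 each way, beside 13.3% of all probes called in WT (7.61% higher, 5.72% lower) and 9.62% in KO MEFs (5.90% higher, 3.73% lower). For Tll1, a protease that trims procollagens and lysyl oxidase precursors, high density read below low density by at least 5.67-fold in WT and by 2.92-fold in KO MEFs. Loxl4, a lysyl oxidase relative, was 2.41-fold lower at high density in WT MEFs and 2.27-fold lower in KO than in WT MEFs at low density, while its dimmer probe gave -0.77 and -0.88. Of the ADAMTS family at microfibrils, Adamts10 (1.11 at low density) and Thsd4 (1.17 at low, 1.93 at high density) were higher in KO MEFs. Their other probes gave 0.93 and 1.05 for Adamts10 and 0.83 and 1.27 for Thsd4. At high density 2 of the 5 measured genes of this list were called higher in KO MEFs and 1 lower, beside 6.41% and 6.62% of all probes. Adamtsl5 was 2.19-fold lower at high density in KO MEFs with a difference of -1.51, but its 3 probes disagreed on that difference, at -1.51, -1.25 and 0.04. Of the proteases that can degrade elastin, Mmp2 was lower in KO MEFs at both densities (-1.83 and -1.56) and Mmp9 was so at high density, by at least 3.13-fold.

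**Figure D5:**
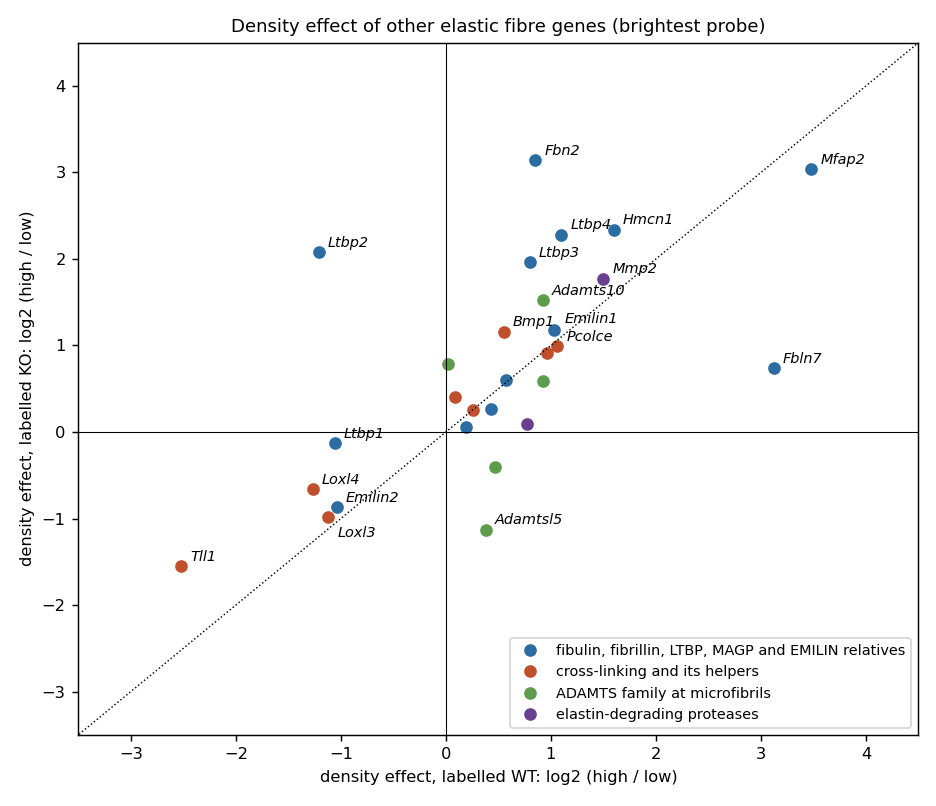
Density effect in KO against WT MEFs, both as log2 of high over low density, for the 28 other elastic fibre genes measured in both genotypes, coloured by list. Genes at 2-fold or more in either genotype are named and the dotted line marks equal effects. Mfap2 lies near that line at the top right, and Ltbp2 (-1.21 in WT, 2.08 in KO) and Fbln7 (3.12 in WT, 0.74 in KO) lie on opposite sides of it.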

How the data were processed

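RNA of low and high density MEFs of both labelled genotypes was hybridised to 4 Agilent whole mouse genome arrays. Genotype, density and dye of each channel come from the labels, where the source names spell the gene LAT2 and the genotype field, used here, Lats2. The authors extracted the arrays with Agilent Feature Extraction 10.5.1.1, per the file headers, and the deposited scanner files hold raw mean intensity, local background, processed signal intensity and quality flags. The deposited log10 ratios of the software, in those files and, rounded and turned to high over low density, in the series matrix, were checked against each other and otherwise left aside. The processed signal, background subtracted and dye normalized by the software, served as an alternative.

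In R 4.3.3 with limma 3.58.1 (and the package data.table, version 1.17.8), the normexp method (offset 50) removed background, arrays were normalized by loess and single channels were scaled between arrays (Aquantile). This offset shrinks the ratios of dim spots. Features of a probe were averaged, leaving out controls and outlier flags. Probes entered a density effect if both arrays read them well above background at either density, a genotype difference if both dyes did so in either genotype, and the difference of density effects if they passed in each genotype. A gene's value is that of its brightest probe. No feature was saturated (0 on every array). The calling rule, run with Python 3.11.15, numpy 2.4.6 and pandas 2.3.3 (figures with matplotlib 3.10.9), was tested on simulated data. No test was made, since each genotype and density has 1 replicate, and precision is limited by how few arrays there are.

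The members, gene lists, markers and the rules for naming genes were chosen with earlier results of these data known. The named genes are the 10 members, Lats2 as a check of the labels, up to 3 called genes with the largest change in each direction and comparison from the further elastic fibre list, and the 3 symbols nearest to each of Eln, Fbln2 and Efemp1, of which 1 is not reported here. Of 21512 symbols, 19664 were found in RefSeq names (GRCm38.p6). Positions of probes come unconverted from the annotation of the array (mm8), without a match to exons. Alternatives were median centring, normexp without offset, the processed signals, stricter and absent filters on dim probes, a 1.4-fold threshold, the mean over probes, other scaling between arrays and leaving out each array.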

Additional observations from a re-analysis of the deposited data

Results flagged for a closer look

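Several genes had effects of opposite sign in the 2 genotypes or at the 2 densities, in every single value on each side. With 1 replicate per genotype and density these differences were not tested. Efemp1 differed both between the density effects of the genotypes and between the genotype differences at the 2 densities, by -5.29 on the log2 scale, which is the same quantity seen from either side. The density effects also opposed each other for Fbln2 (3.48, KO minus WT), Mfap5 (1.95), Lox (1.51) and the dimmer probe of Fbn1 (1.48), lower at high density in WT and higher in KO MEFs. The genotype differences at low and high density opposed each other for both probes of Fbln1 (2.65 and 2.23) and of Fbn1 (1.57 and 1.48), lower in KO MEFs at low and higher at high density. Among these opposed pairs, both effects were called only for the density effects of Efemp1 and Fbln2. For Lox and the dimmer Fbn1 probe neither density effect was called, and in the other pairs the smaller effect was not.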

How the results depend on the processing

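The 10 genes had 25 called values. Under the 5 settings with another correction, normalization or scaling these gave 93 values, of which all 93 kept their sign and 91 were still called. Leaving out 1 array gave 50 distinct values, of which 49 were still called, while their sign is fixed by the calling rule. In comparisons across genotypes, leaving out a KO array or the WT array of the same orientation leaves the same value, counted here 1 time. The lower threshold and the absent filter cannot end a call, and the mean over probes concerns only the 3 genes with 2 probes. The 3 calls lost were Fbln2 and Fbn1 at high against low density in KO MEFs with median centring (0.50 and 0.81) and Fbn1 without KO replicate 1 (0.69). Calls gained at the 2-fold threshold were Eln (1.17 in WT and 1.64 in KO without offset, 1.74 and 2.05 with processed signals, 1.08 in KO with median centring), Fbln1 at low density (-1.01 without offset, -1.02 with processed signals, -1.03 without KO replicate 2 or WT replicate 2) and Lox in KO MEFs (1.33 without KO replicate 2). The values of Fbln5 given above moved by over 1.5-fold, as did the difference of density effects of Mfap5 (2.80 with processed signals).

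Counts over all probes moved most with the lower threshold and next with background correction. In the order density effect in WT, density effect in KO, their difference, genotype at low and at high density, the main counts were 3012, 2271, 1724, 3249 and 3077. Without offset they were 4807, 3862, 2589, 5275 and 4942, and with processed signals 5829, 4866, 3150, 6305 and 5882. At a 1.4-fold threshold they were 8578, 8168, 6126, 9395 and 8877, those of the further elastic fibre list 23, 21, 15, 16 and 17, and 5 of the 10 genes were called at low density. Median centring moved the median density effect of all probes from 0.01 to -0.08 in WT and -0.09 in KO MEFs. With every channel required to be well above background, Eln and Fbln5 gave no value in comparisons that include their dim WT channel. The methods' t-test was not run, since it needs more than 1 replicate per genotype and density. Signal over background limits Eln and Fbln5, and no spread between embryos or cultures could be given. No paired analysis was possible because no test was made, and replicate numbers name dye orientations only.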
